A study of Solanum lycopersicum with 6 samples.

Results

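The genes described here were silent in leaves of WT tomato and clearly expressed in every library of the *kyp* mutant. They were chosen by their measured levels in both genotypes, among the 29278 genes whose Solyc identifier has a 6-digit number ending in 0, of 35821 genes listed in all. A gene was taken when its mean over the WT libraries was under 0.5 CPM (CPM, the counts of a gene per 1000000 counts of its library) and when every *kyp* library held at least 5 CPM. This gave 73 genes, which were 0.73% of the 10006 genes with such identifiers under 0.5 CPM in WT. Because the levels in both genotypes chose the genes, the difference between *kyp* and WT is described for them without a test.

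RNA was sequenced from the fourth leaf of 4-week-old plants of *Solanum lycopersicum* cultivar M82, grown at 24 °C with 16 h of light. The 3 *kyp* libraries came from plants of the M82 background with a mutation in *KYP*, and the 3 WT libraries came from M82 itself. The nature of the *kyp* allele is not given in the sources used here, and no treatment was applied to either genotype. The labels number the libraries of each genotype as biological replicates. Series of values are given in the order of the replicate numbers.

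KRYPTONITE (KYP, also SUVH4) is a SET-domain methyltransferase that places dimethylation on lysine 9 of histone H3 (H3K9me2), a mark of silent chromatin. In Arabidopsis, the DNA methyltransferase CMT3 binds this mark and methylates cytosines outside the CG context, and KYP in turn binds methylated DNA, so that both marks maintain each other. They lie mostly on transposons, on repeats and on the gene-poor chromatin around centromeres, and plants without the mark are known to express loci that are otherwise silent. The gene table used here paired 0 of the 33839 nuclear identifiers of the count table with a symbol, so the genes are called by their identifiers, no role is given for them and the level of *KYP* itself was not checked.

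The *kyp* libraries held between 7283885 and 10091231 counts, and the WT libraries held between 8925379 and 11012421. The limit of 5 CPM thus stood for 36.4 to 50.5 counts in a *kyp* library, and the limit of 0.5 CPM for 4.46 to 5.51 counts in a WT library. A level of 3 counts per library, used as the floor of a library, lay between 0.272 and 0.412 CPM and covers counting error only. No pair of libraries of a genotype was alike within sampling noise, with chi-square values per degree of freedom from 4.59 to 11.8. The plastid gene rbcL, the large subunit of Rubisco and a marker of green leaf tissue, was counted in every library, at 68.2, 101.1 and 117 CPM in *kyp* and 119, 150 and 259 CPM in WT, and psbA, psaA and psaB were present in every library too. Plastid genes together took 0.552 to 0.621% of the counts in *kyp* and 0.652 to 0.881% in WT, whereas mitochondrial genes took 0.0994, 0.0693 and 0.11% in *kyp* and 0.0426, 0.0422 and 0.046% in WT, and the part of these differences in the results below was not tested. In whole leaves, more cells that express a gene and more RNA per cell cannot be told apart.

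Together the 73 genes took 886, 1069 and 1038 CPM in the *kyp* libraries and 5.38, 5.81 and 8.18 CPM in the WT libraries. In counts, these sums were 6450, 10111 and 10473 in *kyp*, against 48, 64 and 73 in WT. The median gene of the set had 9.34, 10.6 and 11 CPM in *kyp* and 0 CPM in each WT library. The sets of values did not overlap for any of the genes, which the rule itself fixes. All 73 also passed the edgeR quasi-likelihood test across 20154 genes at a Benjamini-Hochberg adjusted p under 0.05, where 14.8% of the genes tested were higher in *kyp*, and since the rule used the same contrast nothing is read from that count. The rule turned round, with silence in *kyp* and at least 5 CPM in every WT library, took a single gene, Solyc07g042510.3, with 3, 5 and 1 counts in *kyp* and 65, 106 and 48 counts in WT.

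Most of the set was not detectable in WT at this depth. No count was seen in any WT library for 42 of the 73 genes, 14 had 1 to 3 counts over the WT libraries together and 17 had more. In 60 genes no WT library held more than 3 counts. For the 42 genes without a WT count, the mean in *kyp* was set against 3 counts in each WT library, which gave bounds from at least 16.6-fold to at least 298-fold higher, with a median of 36.5-fold. For the other 31, the rates pooled over the libraries of a genotype were 14.8 to 826 times as high in *kyp* as in WT, with a median of 66.3. The highest of these ratios, that of Solyc03g042560.3, rests on a single WT count, and its exact 95% counting interval ran from 148 to 32676.

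Most of the genes came on at a low level. Their mean over the *kyp* libraries ranged from 5.24 to 93.8 CPM, with a median of 10.2 and quartiles of 8.14 and 13.3 CPM. The mean was between 5 and 10 CPM for 36 genes, between 10 and 20 CPM for 28 and at least 20 CPM for 9. CPM does not correct for gene length, which was not used, so these values give the share of counts per gene and do not rank transcripts per length. The plot of levels by gene shows every library.

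**Figure D1:**
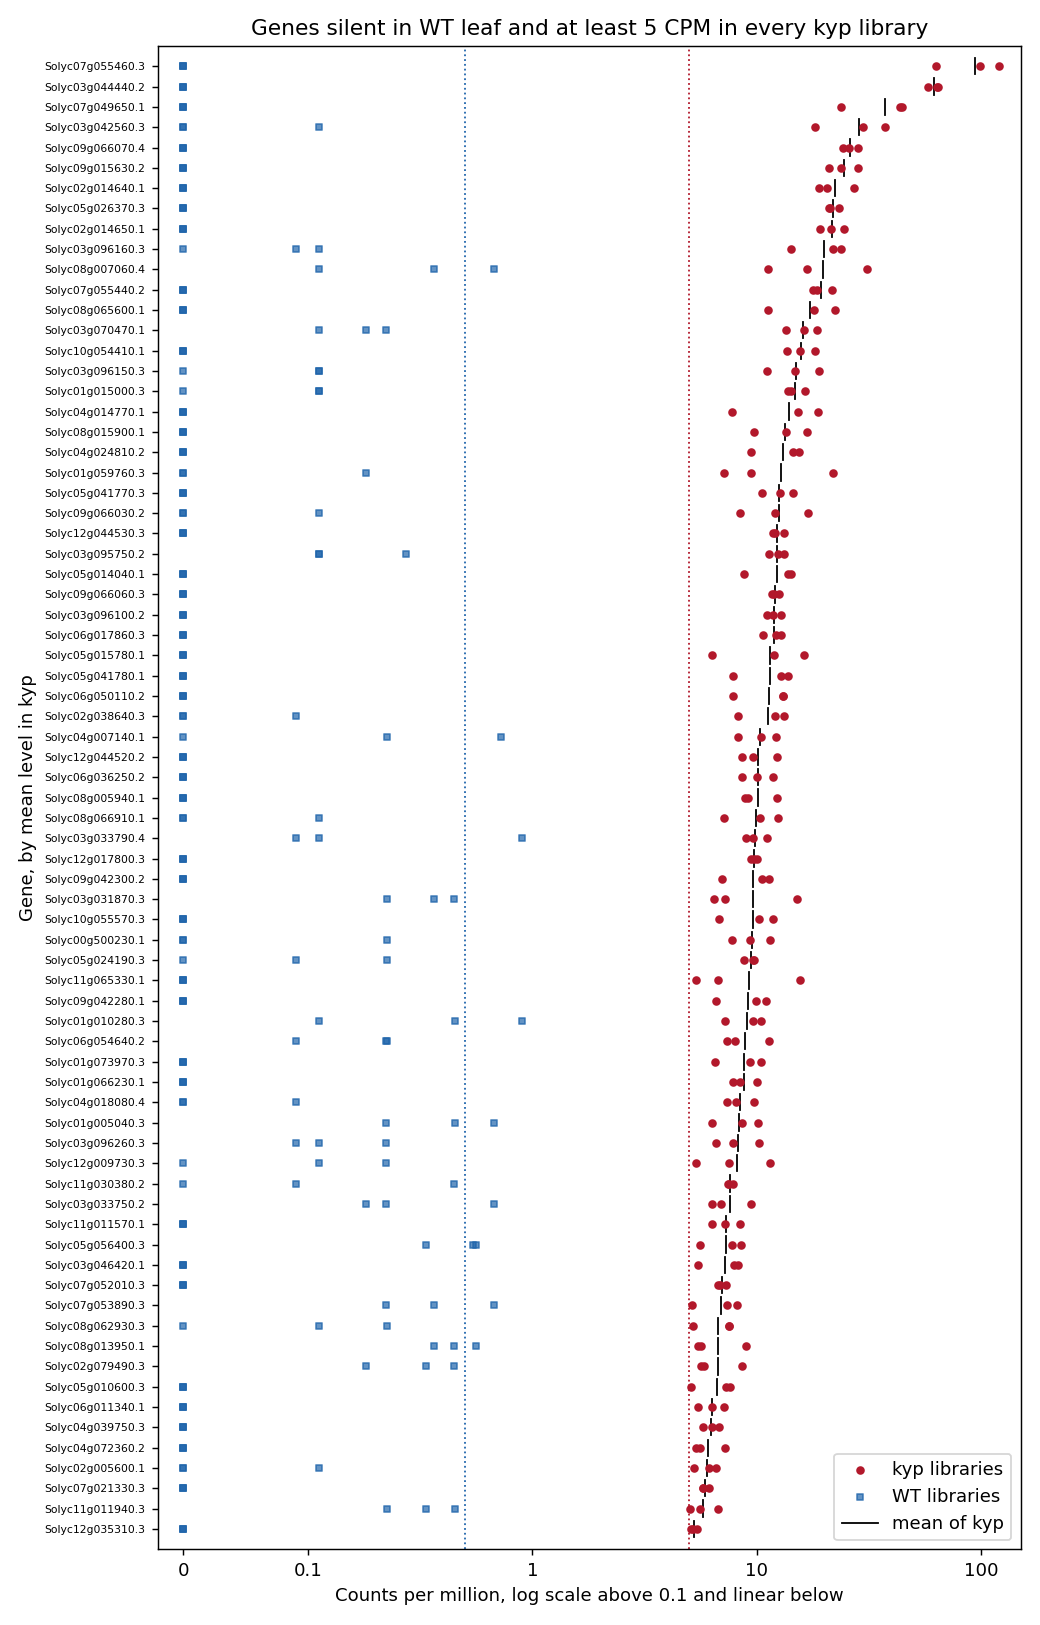
Level of each of the 73 genes in CPM, on an axis that is logarithmic above 0.1 and linear below. Red circles are the 3 *kyp* libraries, blue squares the 3 WT libraries and short lines the mean of *kyp*; the dotted lines mark the limits of the rule at 0.5 CPM for the WT mean and 5 CPM for each *kyp* library. Levels in *kyp* crowd between 5 and 20 CPM, and 2 genes have a mean of at least 50 CPM.

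The gene with the highest level was Solyc07g055460.3 on chromosome 7, with 62.9, 120 and 98.7 CPM in *kyp* (93.8 ± 28.8, SD, n = 3) and no count in any WT library. The second was Solyc03g044440.2, with 58.1, 64.3 and 63.7 CPM in *kyp* (62.0 ± 3.43, SD, n = 3) and no WT count. These 2 genes were the only ones of the set with a mean of at least 50 CPM, and their bounds were at least 298-fold and at least 197-fold higher in *kyp*. Solyc07g049650.1 followed with 23.9, 43.8 and 44.4 CPM in *kyp* and no WT count. Solyc03g042560.3 had 29.8, 18.3 and 37.5 CPM in *kyp*, against 0.112, 0 and 0 CPM in WT. For this gene replicate 2 was the lowest *kyp* library, whereas it was the highest or the second for the 3 genes above it.

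Further down, Solyc09g066070.4 had 28.4, 24.2 and 25.8 CPM in *kyp* and Solyc09g015630.2 had 21.0, 28.3 and 23.9 CPM, both without a WT count. Solyc05g026370.3 had 21.0, 21.3 and 23.4 CPM in *kyp* and none in WT, with little spread between the replicates. The pair Solyc02g014640.1 and Solyc02g014650.1, listed side by side, had 22.3 ± 4.41 and 21.8 ± 2.72 CPM in *kyp* (SD, n = 3) and no WT count. Last of the 10 by level, Solyc03g096160.3 had 14.3, 23.7 and 21.9 CPM in *kyp*, against 0, 0.0908 and 0.112 CPM in WT. Of these 10 genes, 8 had no count in WT.

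At the lower end, Solyc12g035310.3 had 5.08, 5.18 and 5.45 CPM in *kyp* and no count in WT. Solyc11g011940.3 had 6.73, 5.60 and 5.05 CPM in *kyp* and 0.336, 0.454 and 0.224 CPM in WT. Solyc07g021330.3 and Solyc02g005600.1 averaged 5.88 ± 0.217 and 5.99 ± 0.680 CPM in *kyp* (SD, n = 3), with no count and a single count over the WT libraries. The genes with most signal in WT were Solyc01g010280.3, Solyc05g056400.3, Solyc08g013950.1 and Solyc01g005040.3, at WT means of 0.487, 0.480, 0.457 and 0.450 CPM. Their *kyp* means were 9.10, 7.28, 6.71 and 8.33 CPM. The WT signal of Solyc01g010280.3 was uneven, with 1, 5 and 8 counts, while that of Solyc08g013950.1 was even, with 4, 4 and 5 counts.

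The limits of the rule do not mark a gap in the data. Just inside the *kyp* limit, the lowest *kyp* library was at 5.05 CPM for Solyc11g011940.3 and at 5.08 CPM for Solyc12g035310.3 and Solyc05g010600.3. Just outside, it was at 4.95 CPM for Solyc04g028440.1 and 4.94 CPM for Solyc11g018470.3 and Solyc03g113940.4. Just past the WT limit lay Solyc05g050490.4, Solyc07g032080.3 and Solyc10g084430.2, with WT means of 0.539, 0.541 and 0.548 CPM. Of these, Solyc07g032080.3 reached 21.6 ± 1.26 CPM in *kyp* (SD, n = 3), above the level of most genes of the set. With milder limits the same class held 527 genes under 0.5 CPM in WT and at a mean of at least 1 CPM in *kyp*, and the 73 genes were 13.9% of these.

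The *kyp* libraries ranked the genes unevenly. Replicate 1, the library with the fewest counts, was the lowest *kyp* library for 41 of the 73 genes and the highest for 12. Replicate 2 was the highest for 33 and replicate 3 for 28. No such counts are given for other genes, and whether this order belongs to the set or to the libraries was not tested. The coefficient of variation (CV, the SD as a percent of the mean) over the *kyp* libraries had a median of 19.8%, quartiles of 11.3 and 26.1% and a range from 2.64 to 61.6%. In genes of the same identifier class that also had at least 5 CPM in every *kyp* library, the median CV was 13.5% for means between 5 and 10 CPM, 12.3% between 10 and 20 CPM and 9.10% between 20 and 100 CPM. The switched-on genes lay above these values in each band, with medians of 20.3, 21.4 and 15.1%.

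**Figure D2:**
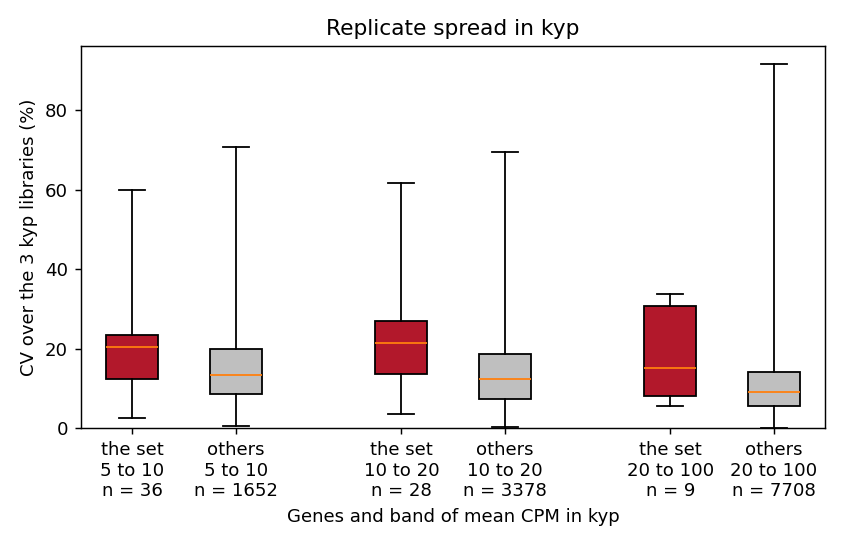
Coefficient of variation over the 3 *kyp* libraries, in percent, for the 73 genes (red) and for the other genes of the same identifier class with at least 5 CPM in every *kyp* library (grey), by band of mean CPM in *kyp*. Boxes give the quartiles and the median, and whiskers the lowest and highest gene. The medians of the 73 genes lie higher in each band (20.3, 21.4 and 15.1%, against 13.5, 12.3 and 9.10%), and the ranges overlap.

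The highest *kyp* library was under 2 times the lowest for 64 of the 73 genes and reached at least 2 times for 9. The widest spread was that of Solyc01g059760.3, with 9.47, 7.19 and 21.9 CPM in *kyp*, where replicate 3 stood 3.05 times above replicate 2. Solyc11g065330.1 had 5.35, 15.5 and 6.74 CPM and Solyc03g031870.3 had 6.45, 15.1 and 7.23 CPM, and in both the high library was replicate 2. Solyc08g007060.4 had 16.7, 31.2 and 11.2 CPM, again highest in replicate 2. The evenest genes were Solyc11g030380.2, with 7.55, 7.82 and 7.43 CPM, and Solyc12g017800.3, with 9.75, 9.41 and 10.01 CPM. The replicate with the high value was thus not the same in all of the widest genes.

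To see how far the choice rests on a single library, the rule was applied without each library in turn and the genes were read in the library left out. Without *kyp* replicate 1 the rule took 88 genes, of which 73 had at least 5 CPM and 87 at least 1 CPM in that replicate. Those 73 are the set itself, by definition of the rule. Without *kyp* replicate 2 it took 79 genes, and all 79 had at least 1 CPM in it. Without *kyp* replicate 3 it took 90 genes, of which 79 had at least 1 CPM in that replicate and 5 had no count at all. Of the genes chosen without WT replicate 1, 2 or 3, 68 of 71, 68 of 73 and 65 of 74 were under 0.5 CPM in the replicate left out. No shares over other genes were set beside these counts, which describe the choice and do not test it.

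Some genes outside the set missed the *kyp* limit in a single replicate. There were 17 genes with at least 5 CPM in the other *kyp* libraries and less in replicate 3, and 8 of them had 3 counts or fewer there. Others of the 17 were just under the limit, such as Solyc01g066100.2 with 45, 59 and 49 counts and Solyc04g028440.1 with 39, 51 and 50. High values in the other *kyp* libraries picked these genes, and no share over other genes is given. None of the 15 and 6 genes missed in replicate 1 or in replicate 2 alone fell that low. Solyc04g007760.3 had 173, 257 and 3 counts in *kyp* and 0, 0 and 3 in WT. Solyc04g014320.1 and Solyc04g014330.1, with adjacent numbers, had 70, 165 and 1 counts and 92, 190 and 0 counts in *kyp*, against 1, 2 and 3 counts and 1, 0 and 1 counts in WT. In these genes the third *kyp* library was at the level of WT. They were named after their values were seen, and they stand outside the 73 genes.

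The 73 genes were found on every one of the 12 chromosomes. From chromosome 1 to chromosome 12 there were 6, 5, 12, 6, 8, 5, 6, 7, 7, 2, 4 and 5 of them. Chromosome 3 held most, with 1.35% of its genes of this class that were silent in WT, and chromosome 10 fewest, with 0.23%. Places were read from the order of the count table, which forms 12 chromosome blocks. In it 96.2% of successive genes of the class have a rising identifier number, and no genome coordinates were used. Of the 73 genes, 72 were listed in the block of the chromosome in their identifier, and the exception, Solyc00g500230.1, was listed on chromosome 9.

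Along the chromosomes the set was missing from much of the far end of the listed order. With the order of each chromosome cut into 10 equal parts, there were, from start to end, 7, 10, 12, 11, 6, 11, 12, 3, 0 and 1 genes. As shares of the genes of the class silent in WT, these were between 0.518 and 1.21% in each of the first 7 parts, and 0.371, 0 and 0.139% in the last 3. The only gene in the last part was Solyc05g056400.3, named above for its signal in WT. The middle 50% of the order held 63.0% of the set, 55.8% of the silent genes of the class and 47.7% of all genes of the class.

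**Figure D3:**
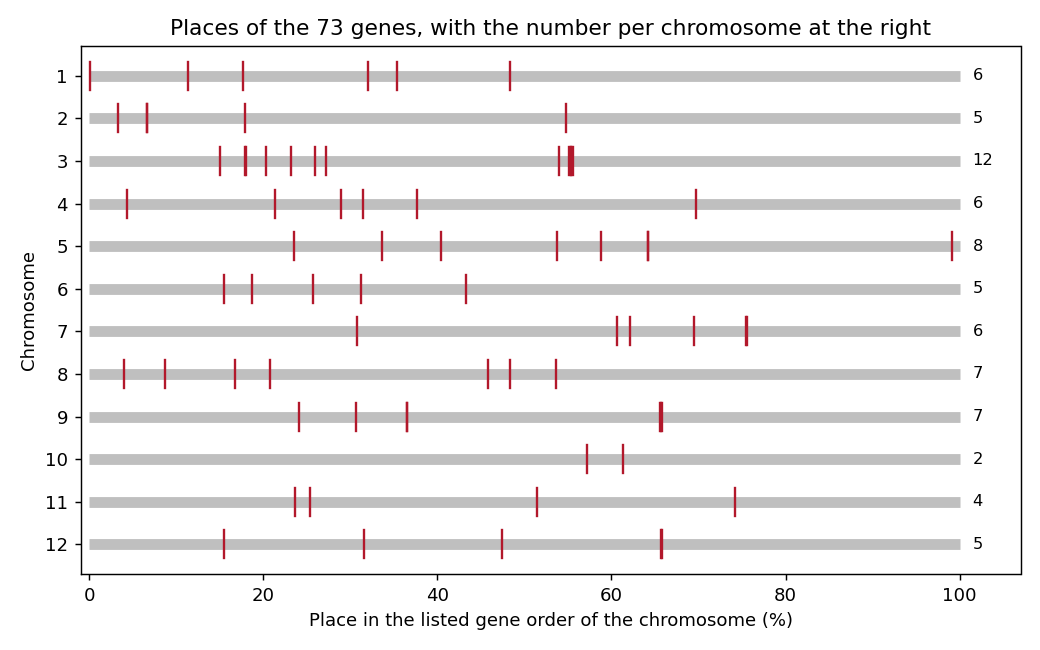
Place of each of the 73 genes (red marks) in the listed gene order of its chromosome, in percent of the genes listed, with the number per chromosome at the right. Chromosome 3 holds 12 genes and chromosome 10 holds 2, and the last 3 of 10 equal parts of the order hold 3, 0 and 1 genes.

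The genes listed around the set were silent in WT somewhat more often than those around other silent genes. Among the 50 genes listed around each, a median of 52.0% were silent in WT, with quartiles of 44.0 and 74.0%. This share was 48.0% around the other silent genes of the class and 32.0% around genes that were not silent, and the ranges overlapped. The digit after the point of the identifier, which marks its version, was 1 for 31.5% of the set, for 49.0% of the other silent genes and for 11.4% of genes not silent. It was 2 for 20.5, 17.9 and 15.3%, 3 for 42.5, 26.0 and 47.3% and 4 for 5.48, 7.10 and 25.8% of the same groups.

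Whether the genes listed directly beside them were also on was examined in 134 genes that are next to a gene of the set and not in it. Of these, 79 were under 0.5 CPM in WT, 53 were at 1 CPM or more and 2 lay between. Among the 79 silent neighbours, 18 (22.8%) reached a mean of at least 1 CPM in *kyp*. Among the silent neighbours of the other silent genes of the class, this was 427 of 8768 (4.87%), and over all listed nuclear genes silent in WT it was 5.63%. At the same time 41 of the 79 (51.9%) had no count in any *kyp* library, against 63.0% of the silent neighbours of other silent genes. Most silent neighbours thus stayed off beside a gene that came on.

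By the edgeR test, 22 of the 68 neighbours that could be tested were higher in *kyp* (32.4%, against 14.8% of all genes tested) and 6 were lower (8.82%, against 10.2%). The filter on low counts keeps a gene silent in WT only when it is high in *kyp*, so the silent neighbours that were tested had to differ, and 17 of the 18 that came on were among the 22. The exception was Solyc12g009720.3, with 11, 5 and 19 counts in *kyp* and 0, 1 and 3 in WT, which the filter removed. Among the neighbours of at least 1 CPM in WT the shares lay near those of other expressed genes. Of 51 tested, 5 were higher (9.80%, against 11.8% of all genes at that level) and 6 were lower (11.8%, against 10.6%), and their median log2 fold change was -0.02. Without strand-specific counting being stated, reads of overlapping genes and transcripts that run on into the next gene cannot be told apart from expression of the neighbour.

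**Figure D4:**
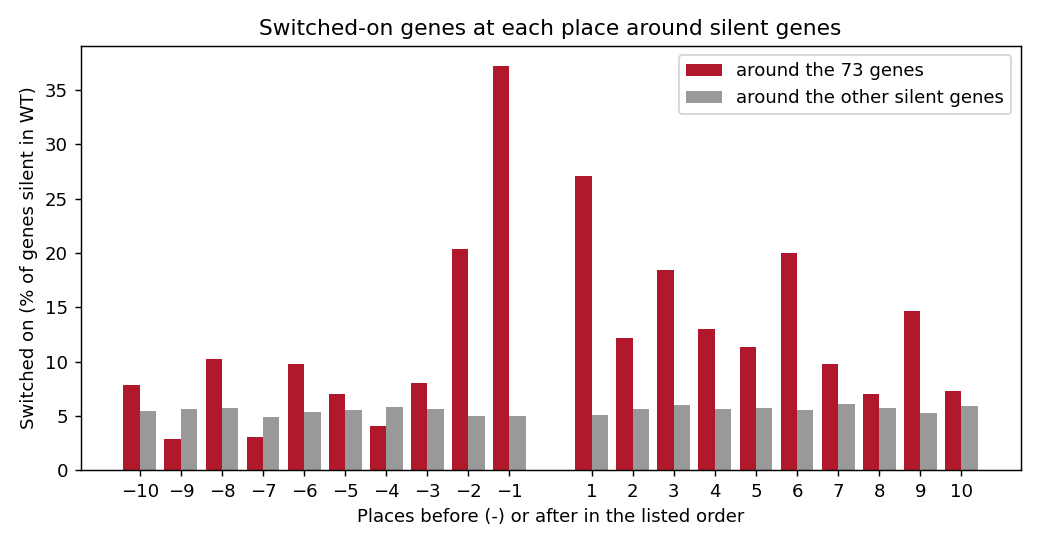
Percent of the genes silent in WT that had a mean of at least 1 CPM in *kyp*, at each place before and after the 73 genes (red) and the other silent genes of the same class (grey), in the listed order. The shares at the places directly before and after the 73 genes, 37.2 and 27.1%, include genes of the set itself; the grey bars are 4.99 and 5.11% at these places.

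The share of silent genes that came on was lower further from the set. It was 22.8% for direct neighbours, 17.3% within 2 places and 10.7% within 5 places, counting only genes outside the set. The counts that follow include genes of the set itself among the switched-on genes, so the way the set was chosen raises them. On this count, a switched-on gene stood within 5 places of 37 of the 73 genes (50.7%), against 22.0% of the other silent genes of the class. At least 3 such genes stood within 5 places of 8 genes (10.96%), against 1.28%. The other 36 genes had none within 5 places. Of the whole set, 32 had genes silent in WT on both sides, and for 12 of these both stayed under 1 CPM in *kyp*. Another 12 lay between 2 genes expressed in WT. These shares were not taken for other silent genes.

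Of the 18 neighbours that came on, 7 had Solyc numbers ending in 0, 8 had other Solyc numbers and 3 had TomatoPan identifiers, while the 134 neighbours in all were 97, 27 and 10 of these types. The whole list held 29278, 4561 and 1768 genes of these types. The share of silent neighbours that came on was not split by type, so the part of identifier type in it was not tested. Solyc09g150122.1, beside Solyc09g042300.2, had 106, 204 and 217 counts in *kyp* and none in WT, at least 61.0-fold higher. Solyc00g500231.1, beside Solyc00g500230.1, had 71, 156 and 125 counts in *kyp* and none in WT, at least 40.9-fold higher. On its other side Solyc00g500229.1 had 11, 11 and 12 counts in *kyp* and none in WT, so this gene, whose identifier carries no chromosome number, lay in a run of 3 that were all on.

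Solyc05g017793.1, Solyc10g055580.2, Solyc02g150116.1 and TomatoPan061370 also had no WT count and were at least 21.9-, 20.9-, 19.5- and 18.8-fold higher in *kyp*. In *kyp* they averaged 6.90 ± 1.41, 6.57 ± 2.29, 6.14 ± 0.846 and 5.91 ± 2.87 CPM (SD, n = 3). TomatoPan061370 had 32, 39 and 93 counts in *kyp*, highest in replicate 3, as did the gene it stands beside, Solyc01g059760.3. Solyc05g017793.1 carries the number of chromosome 5 and was listed on chromosome 8, beside Solyc08g066910.1 with its 7.14, 12.48 and 10.3 CPM in *kyp*.

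Among the 51 tested neighbours of at least 1 CPM in WT, the largest decrease past the threshold was that of Solyc09g066080.3. It had 33, 41 and 62 counts in *kyp* against 144, 180 and 144 in WT, a log2 fold change of -1.63 ± 0.16 (SE, edgeR adjusted p = 0.000208), and stood beside Solyc09g066070.4, the fifth gene of the set by level. Solyc10g055560.2 had 8, 6 and 15 counts in *kyp* against 38, 27 and 27 in WT, a log2 fold change of -1.51 ± 0.36 (SE, edgeR adjusted p = 0.0169), and without WT replicate 1 the value was -1.28 with an edgeR adjusted p of 0.0655. It lay before Solyc10g055570.3, while Solyc10g055580.2 after it came on. The other 4, Solyc03g044430.3, Solyc12g044455.1, Solyc05g026380.3 and Solyc01g010290.4, had log2 fold changes of -0.64, -0.47, -0.45 and -0.38 and edgeR adjusted p of 0.0244, 0.032, 0.0205 and 0.0338. Each of these 4 calls was lost without WT replicate 1, with values of -0.62, -0.49, -0.38 and -0.41, and each was also lost without *kyp* replicate 1, with -0.66, -0.38, -0.45 and -0.34. Leaving out WT replicate 2 lost all 4 too, at -0.62, -0.44, -0.46 and -0.35. With DESeq2 on all libraries, only Solyc05g026380.3 of these 4 kept its call, and 3 neighbours were called lower. The number of neighbours lower in *kyp* was 1 without WT replicate 1, 2 without WT replicate 2 or *kyp* replicate 1, 3 without *kyp* replicate 3, 4 without WT replicate 3 and 8 without *kyp* replicate 2.

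The 5 expressed neighbours that rose were named after their values were seen. Solyc07g049645.1, beside Solyc07g049650.1, had 146, 297 and 244 counts in *kyp* against 22, 45 and 51 in WT, a log2 fold change of 2.68 ± 0.28 (SE, edgeR adjusted p = 0.000306). Solyc02g079500.4 and Solyc08g013940.3 had log2 fold changes of 1.14 ± 0.19 and 0.88 ± 0.19 (SE, edgeR adjusted p = 0.00273 and 0.0103). Solyc04g007140.1 had such a neighbour on both sides, Solyc04g007130.1 at 0.77 ± 0.15 and Solyc04g007150.3 at 0.56 ± 0.15 (log2, SE, edgeR adjusted p = 0.00552 and 0.0247). The call of Solyc04g007150.3 was lost without *kyp* replicate 1, WT replicate 2 or WT replicate 3, at 0.43, 0.50 and 0.52.

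Of the 73 genes, 19 stood within 10 places of another gene of the set, in 8 groups, and 54 stood alone. No such grouping was counted for other silent or switched-on genes, so whether it is particular to the set was not tested. In 5 places, 2 genes of the set were listed directly side by side. Solyc02g014640.1 and Solyc02g014650.1, at 22.3 and 21.8 CPM in *kyp* lay between 2 genes, Solyc02g014630.1 and Solyc02g014660.1, without a count in any library. Solyc12g044520.2 and Solyc12g044530.3 had 9.61, 8.56 and 12.4 CPM and 12.1, 11.8 and 13.2 CPM in *kyp*, with no WT count in either. Just before this pair stood the expressed gene Solyc12g044455.1, named above as lower in *kyp*, and just after it Solyc12g044540.3 had 2, 0 and 1 counts in *kyp*.

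Solyc05g041770.3 and Solyc05g041780.1 had 12.6 ± 1.96 and 11.5 ± 3.19 CPM in *kyp* (SD, n = 3) and no WT count. Before them Solyc05g041760.1 had 14, 34 and 32 counts in *kyp* and none in WT, so 3 successive genes were on. Both genes of the pair were lowest in *kyp* replicate 1. The pair Solyc09g066060.3 and Solyc09g066070.4, at 12.1 ± 0.443 and 26.1 ± 2.13 CPM in *kyp* (SD, n = 3), lay 6 and 7 places after Solyc09g066030.2, at 12.52 ± 4.30 CPM. Of the 8 genes this group spans, all were silent in WT and 4 were on in *kyp*, the fourth being Solyc09g066050.2 with 28, 41 and 47 counts in *kyp* and none in WT. After the pair came Solyc09g066080.3, which was lower in *kyp*, and then Solyc09g066085.1, with 34, 59 and 62 counts in *kyp* and none in WT.

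The largest group lay on chromosome 3, from Solyc03g096100.2 to Solyc03g096260.3. It spans 16 genes, of which 14 were silent in WT and 7 of these were on in *kyp*, 4 of them genes of the set. Solyc03g096150.3 and Solyc03g096160.3 stood side by side at 15.0 ± 3.90 and 19.95 ± 4.995 CPM in *kyp* (SD, n = 3). Before them Solyc03g096130.2 and Solyc03g096140.2 had 20, 10 and 25 counts and 18, 55 and 50 counts in *kyp* and none in WT, which makes a run of 4 successive genes. Among the genes between, 4 had no count in *kyp*. The expressed gene within the group, Solyc03g096220.3, had 7.59 ± 1.38 CPM in *kyp* and 9.07 ± 0.188 CPM in WT (SD, n = 3 each), and its log2 fold change of -0.19 did not pass the test. Solyc03g096180.4, which lay between the limits in WT at 0.646 ± 0.148 CPM, had 1.45 ± 0.119 CPM in *kyp* (SD, n = 3 each). Its log2 fold change was 1.19 ± 0.33 (SE, edgeR adjusted p = 0.0292).

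On chromosome 9, Solyc09g042280.1 and Solyc09g042300.2 had 6.59, 9.94 and 11 CPM and 7.002, 10.6 and 11.3 CPM in *kyp*. Between them Solyc09g042290.3 had 16, 23 and 20 counts in *kyp*, before them Solyc09g150120.1 and Solyc09g150121.1 had 26, 39 and 31 counts and 16, 27 and 31 counts, and after them stood Solyc09g150122.1. None of these 6 genes had a WT count, and no expressed gene or gene left silent lay between them. They form the longest unbroken run of switched-on genes in the 8 groups.

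On chromosome 7 the strongest gene of the set, Solyc07g055460.3, stood 2 places after Solyc07g055440.2, which had 17.8, 18.5 and 21.7 CPM in *kyp* and no WT count. Between them Solyc07g055450.2 stayed off, with 2, 1 and 0 counts in *kyp* and 1, 0 and 0 in WT. The gene on the other side, Solyc07g055470.3, was expressed in both genotypes, with 228, 442 and 379 counts in *kyp* and 181, 201 and 398 in WT. In the group of Solyc03g033750.2 and Solyc03g033790.4 on chromosome 3, only those 2 of the 4 silent genes spanned were on, and both had uneven WT counts of 2, 2 and 6 and of 1, 1 and 8, highest in replicate 3.

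**Figure D5:**
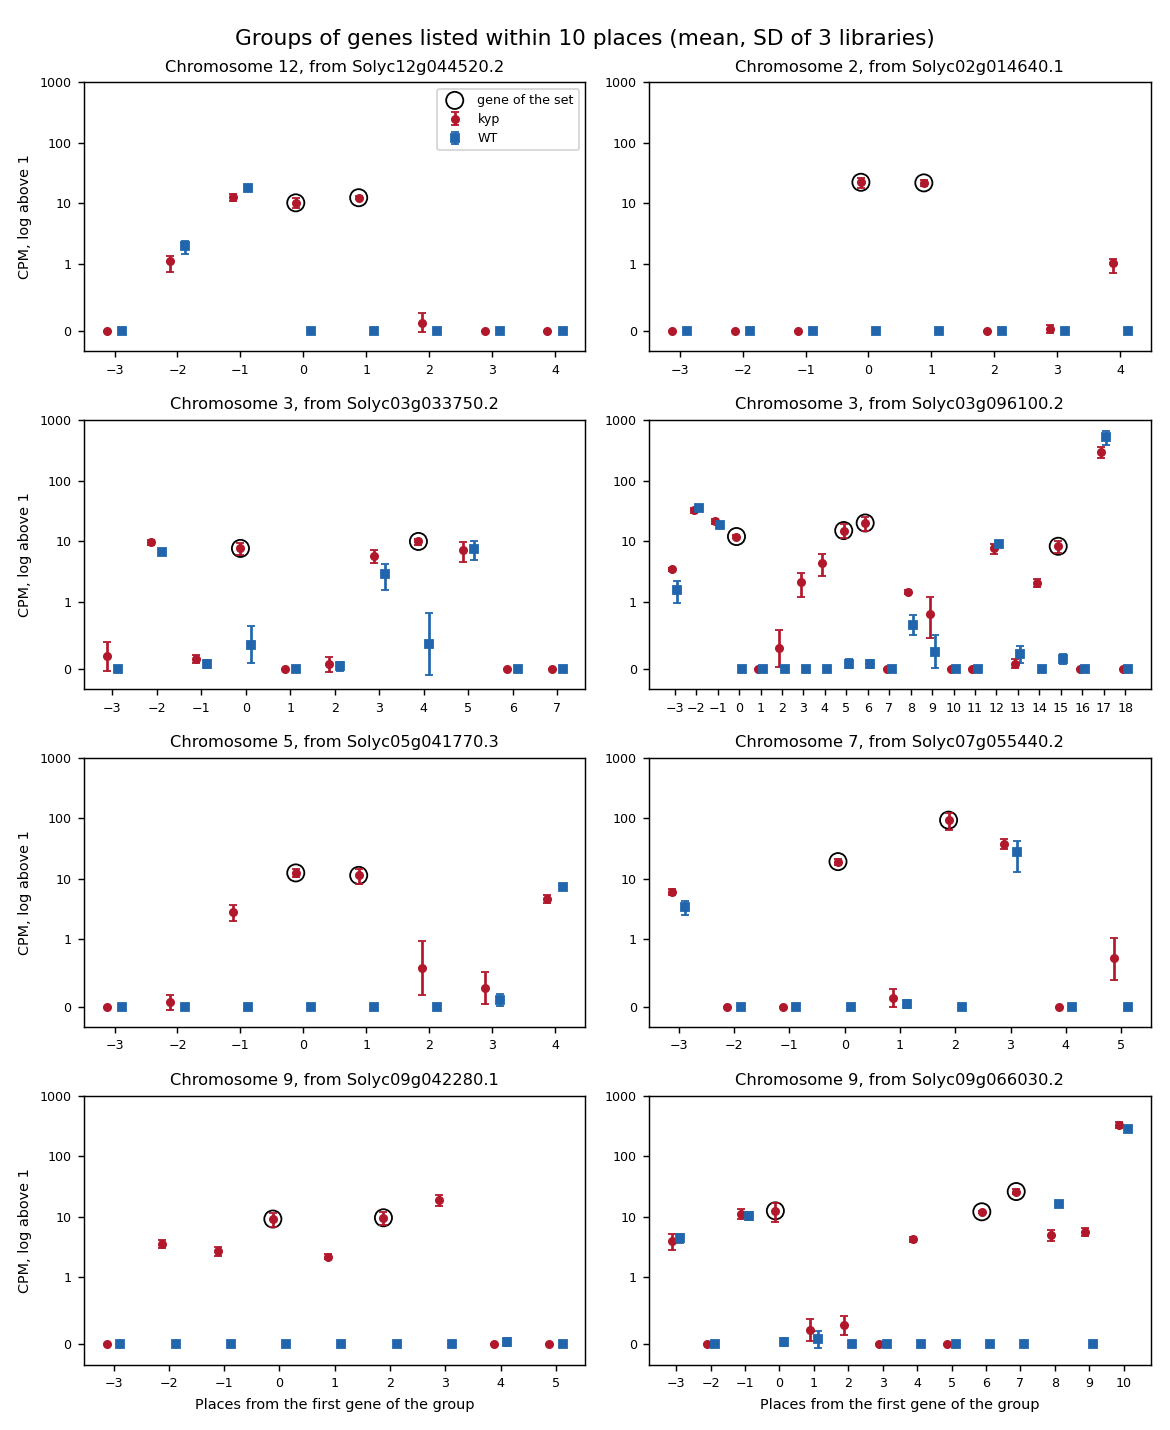
Levels in the 8 groups and the 3 genes on each side, as mean and SD of 3 libraries in CPM, on an axis that is logarithmic above 1 and linear below, by place from the first gene of the group. Red circles are *kyp*, blue squares are WT and open rings mark the genes of the set. The group from Solyc09g042280.1 shows 6 successive genes on in *kyp* with WT at 0, while in the group from Solyc07g055440.2 the gene between the 2 of the set is near 0 in both genotypes.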

How the data were processed

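RNA from leaves was made into directional paired-end libraries and sequenced as 150-bp reads, with 3 libraries each of *kyp* and WT. The authors deposited raw counts, whole and not normalized, for each gene in each library. Sources differ on the mapping: the methods of the paper describe Bowtie2 in very sensitive mode on the M82 genome with removal of duplicates and low mapping qualities, whereas the processing notes of the submitters list Trimmomatic 0.38, HISAT2 2.2.1, SAMtools 1.9, featureCounts, R 3.5.1 and DESeq2. Bowtie2 does not split reads over introns, and limits on mapping quality lower the counts of near-identical copies. The annotation release and the strand setting are not given in the sources used here, so overlapping and duplicated genes are uncertain. The count table had 0 per-sample columns that were not used.

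CPM were calculated by dividing deposited counts by column totals in Python 3.11.15. Differential expression was tested over the whole table in R 4.3.3 with edgeR 4.0.16 (glmQLFit, glmQLFTest), with TMM, genotype as the only factor, filterByExpr (minimum count of 10, minimum total of 15) and Benjamini-Hochberg adjustment. The code was also run on simulated counts with the same variability for every gene, unlike these data, and nothing is read from that run. SE are the log2 fold change over the square root of F. A fold against genes without a WT count is a lower bound against 3 counts per WT library. Where the labels say biological replicate, no source says whether plants were pooled.

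Alternatives were DESeq2 1.42.0, limma-voom (limma 3.58.1), library totals, no filter beyond 1 count, the replicate number as a block, a 2-fold minimum, other limits, identifiers and distances, and leaving out each replicate. The set, the lists and the tests were chosen with earlier results of these data known. Named were the 10 genes with the highest mean in *kyp*, the 4 with the lowest, the 4 with the highest WT mean, the 4 largest and 2 smallest CV, adjacent genes of the set, the 3 nearest genes outside each limit and, in each direction, the 6 neighbours with the largest log2 fold change past the threshold. Marker and function lists could not be applied, because no nuclear identifier was paired with a name, and no sequences are shown. Figures were drawn with matplotlib 3.10.9.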

Additional observations from a re-analysis of the deposited data

How the results depend on the processing

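The set held 42 genes when no WT count was allowed, 177 and 23 when every *kyp* library had to reach 2 or 10 CPM, and 153 with all Solyc identifiers or with all identifiers of the table. It held 53 and 91 genes with WT limits of 0.1 and 1 CPM and 76 with TMM or DESeq2 scaling. Leaving out a replicate gave 71 to 90 genes. Of the neighbours, 42 were higher in *kyp* within 2 places (of 128 tested) and 77 within 5 places (of 288 tested), 6 of those silent in WT reached 5 CPM and 40 within 5 places reached 1 CPM. Over all genes tested 14.8% were higher, and the filter let silent neighbours into the test only when they were high in *kyp*. Without a replicate, 21 to 27 direct neighbours were higher and 18 or 19 came on. These were 30.4 to 39.1% of the neighbours tested, against 11.1 to 15.9% of all genes tested, with the same effect of the filter. With library totals alone, 2681 genes were higher and 2605 lower, against 2982 and 2046 with TMM, but 22 neighbours were higher in both. The named neighbours kept their direction in all 187 combinations of 17 genes and 11 alternatives and lost their call in 25, the cause of which was not tested. Those without a WT count could not change direction, so their part of this count was fixed in advance. The calls of Solyc03g044430.3, Solyc12g044455.1, Solyc05g026380.3 and Solyc01g010290.4 were lost in 5, 6, 4 and 6 of the 11 alternatives. Solyc04g007150.3 lost its call in 3 and Solyc10g055560.2 in 1.

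The deviations of replicates with the same number in both genotypes had correlations of 0.193, 0.0682 and -0.0579. For replicates with different numbers the correlations ran from -0.291 to 0.189. With 3 libraries of each genotype, these values cannot decide whether the numbers pair the samples. With the replicate number as a block, 22 neighbours were higher, with 2987 genes higher and 1880 lower in all.

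Depth limits silence to 3 counts per library, and a gene near 0.5 CPM in WT rests on about 5 counts. The median CV was 20.2% with TMM scaling, and 50 genes lay in the middle 50% of the order when identifier numbers gave the order.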

Other observations

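The levels that define the set were also reached by 80 genes with other Solyc numbers, which are 2.21% of the 3614 such genes silent in WT, against 0.73% for numbers ending in 0. Their median in *kyp* was 14.3 CPM. The highest, Solyc05g021245.1, had 835, 2490 and 1450 counts in *kyp* and 0, 0 and 2 in WT, or 174 ± 78.8 CPM in *kyp* (SD, n = 3), and Solyc12g062227.1 had 503, 901 and 824 counts in *kyp* and none in WT. Of these 80 genes, 7 stood within 5 places of a gene of the set. None of the 1601 TomatoPan genes silent in WT reached these levels.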
